A study of Mus musculus with 2 samples.

Results

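Reference mRNAs are transcripts used as a scale for other transcripts, usually because most cells make them at a steady level. After ischemia/reperfusion injury (IRI) of the liver, 7 mRNAs grouped under this name were examined in plasma of mice, namely Actb, B2m, Gapdh, Ppia, G6pd2, Tfrc and Rpl13a. Whether most cells make each of these 7 at a steady level, G6pd2 among them, was not tested. They were found on the array as custom probes that carry the RefSeq mRNA accession of the gene, and all 7 were found among 118 accessions. Each gene had 1 probe printed as 20 spots, so that the 7 mRNAs took 140 of the 61194 spots that are not array controls. Another 8 mRNAs were printed in the same way, which makes 15 in all.

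Plasma came from male C57BL/6 mice of 8 to 10 weeks. The IRI pool was taken after 60 minutes of partial hepatic ischemia and 6 hours of reperfusion, and the control pool came from sham mice, which had the operation without vascular occlusion. The deposited design text gives 3 mice for the pool after IRI, and the methods of the study give 5 to 8 per pool. Ribosomal RNA was removed and the rest was copied from random primers into labelled cRNA. Each pool was hybridised to 1 one-colour array, so that the groups had no replicate and no test between them was possible. All errors below are over spots of 1 array and leave out differences between mice, pools and hybridisations. In pooled plasma, RNA released by more cells and more RNA released per cell cannot be told apart.

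Products of the 7 genes belong to different basic functions. Actb encodes beta-actin of the cytoskeleton, Gapdh an enzyme of glycolysis, and G6pd2 an autosomal relative of the X-linked enzyme that opens the pentose phosphate pathway. Ppia encodes cyclophilin A, which helps proteins to fold. B2m encodes the light chain of MHC class I molecules, Tfrc the transferrin receptor that takes up iron and is abundant on erythroid precursors, and Rpl13a a protein of the large ribosomal subunit. Plasma is blood freed of cells, and its mRNA is what cells have released and what has survived outside them.

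Gapdh was also the internal control of the real time PCR assays of the study. Its primer pair is shown because this mRNA served as the scale of those assays.
Gapdh sense primer: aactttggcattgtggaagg
Gapdh antisense primer: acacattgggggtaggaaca
Both primers have 20 bases, and they are written 5′ to 3′. The array probes were used here by name and accession only.

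The IRI sample was deposited in 2 versions that differ, and both are given throughout. The scanner version is the scanner file of the array, and the matrix version is the column given under the same sample in the series matrix. Which of them holds the IRI plasma pool cannot be settled from the sources used here, so that each change below is that of a deposited version and may not be that of the pool. For sham, file and column held equal values at all 62513 spots (relative tolerance 1e-05), whereas the versions of IRI held equal values at 1 spot. The processed signal, an intensity after background subtraction, had its median over spots at 13.7 for sham, 39.6 for the scanner version and 7.75 for the matrix version. Spots of the 20 negative-control probes, 1200 in all, had medians of 10.4, 2.53 and 3.13 in the same order. Scan day and group cannot be told apart.

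On the sham array, 5 of the 7 reference mRNAs were well above background in every spot. These were Actb, B2m, Gapdh, Ppia and G6pd2. Tfrc and Rpl13a were not. Well above background is a flag of the scanner software, and the lowest sham signal that carried it was 16.67. This signal also served as the floor for the matrix version, which has no flags. Being flagged is a weak criterion, as 388 of the 1200 negative-control spots carried it on the sham array. Their 95th percentile was 74.4 there, above the sham medians of Actb (71.4) and Ppia (61.1). Changes of Actb and Ppia below therefore start from sham signals within the range of negative controls. The sham median of G6pd2, 157, was above that percentile but below the brightest negative-control spot, 177. In the scanner version all G6pd2 spots, from 111 to 210, lay between the negative-control 95th percentile of 57.5 and maximum of 331. In the matrix version 306 negative-control spots were above the floor. For the scanner version all 7 were well above background in every spot. For the matrix version 4 were above the floor in every spot, and Ppia, Tfrc and Rpl13a were below it in every spot.

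**Figure D1:**
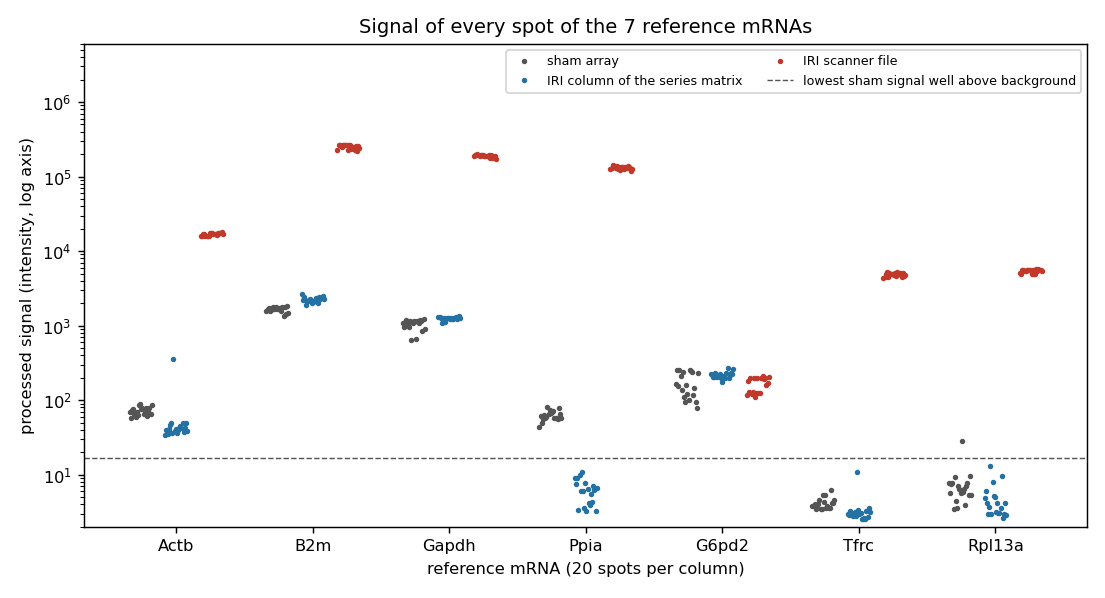
Processed signal (intensity, log axis) of each of the 20 spots of the 7 reference mRNAs on the sham array (grey), in the matrix version (blue) and in the scanner version (red). The dashed line is the floor of 16.67. Spots of the scanner version lie above all others for 6 of the mRNAs and among them for G6pd2.

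Among the enzymes, Gapdh ranged over its 20 sham spots from 632 to 1225 with a median of 1100. Within the matrix version it ranged from 1079 to 1339 with a median of 1260. Within the scanner version it ranged from 173171 to 198675 with a median of 189280. The sham spots and those of the matrix version overlapped, and every spot of the scanner version was brighter than both.

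G6pd2 stood apart from the other 6. Its sham spots ranged from 78.1 to 256 with a median of 157, those of the matrix version from 176 to 272 with a median of 210, and those of the scanner version from 111 to 210 with a median of 175. All 3 ranges overlapped, so that the unnormalized signals of G6pd2 had no order beyond the spread of their spots.

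For Actb the sham spots ranged from 57.1 to 89.3 with a median of 71.4. In the matrix version 19 of 20 spots lay between 33.6 and 49.7, below every sham spot, and 1 spot had a signal of 351. In the scanner version the range was 15817 to 17765 with a median of 17075. The order of the medians was therefore matrix version, sham array and scanner version, with 1 spot out of that order.

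B2m had sham spots from 1353 to 1839 with a median of 1694. Spots of the matrix version ranged from 1869 to 2616 with a median of 2235, and those of the scanner version from 219929 to 268290 with a median of 253971. No ranges overlapped, and B2m was the only one of the 7 whose spots were all brighter than the sham spots in both deposited versions. Of all spots that are not controls, 99.9% had a lower signal than this median in the scanner version and 96.9% on the sham array.

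Ppia was split between the versions. Its sham spots ranged from 43.3 to 79.9 with a median of 61.1. For the matrix version its spots ranged from 3.22 to 10.95 with a median of 6.15, all below the sham spots and below the floor. For the scanner version they ranged from 118746 to 141504 with a median of 131622, all above the sham spots.

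Tfrc and Rpl13a were dim outside the scanner version. Tfrc ranged on the sham array from 3.46 to 6.32 with a median of 3.95, and 0 of 20 spots were positive and significant there. Within the matrix version it ranged from 2.55 to 10.98 with a median of 2.95. The corresponding range in the scanner version was 4318 to 5222, with a median of 4879. Rpl13a ranged on the sham array from 3.47 to 28.6 with a median of 6.47, where 1 spot was well above background but carried an outlier flag. Its spots in the matrix version ranged from 2.64 to 13.0 with a median of 3.93, and in the scanner version from 4855 to 5678 with a median of 5511. Sham spots and spots of the matrix version overlapped for both genes.

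Log2 signals of the sham array and of 1 of the deposited versions were then quantile normalized together over the 61194 spots, and the change of a gene is the mean over its spots of log2 IRI over sham. A change of 1.5-fold or more was counted as a rise and of 0.7 or less as a fall, after the thresholds of the study. Within the scanner version 6 of 7 reference mRNAs were at or above 1.5-fold and 1 was at or below 0.7. At the same thresholds 28.8% of 44842 probes were counted as higher and 40.5% as lower. In the matrix version 5 of the 7 could be given a change or a bound, of which 0 were higher and 2 were lower, where 34.6% of 28934 probes were higher and 24.0% lower. The median log2 change of the mRNAs with a value was 4.81 in the scanner version (7 mRNAs) and -0.40 in the matrix version (5 mRNAs). The first of these medians includes bounds for Tfrc and Rpl13a, and the second a bound for Ppia. Over all probes above background on both arrays, a set without such bounds, the median log2 change was -1.78 (21130 probes) and 0.21 (17560 probes).

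In the scanner version, Ppia had the highest change among the 7. Its log2 change was 8.54 (SD over 19 spots 0.32), a 373-fold higher signal, and 0.592% of the 21130 probes had a higher one. Actb was higher by 4.81 (SD over 20 spots 0.21), Gapdh by 4.77 (SD over 19 spots 0.26) and B2m by 4.56 (SD over 19 spots 0.09) on the log2 scale, as 28.1-fold, 27.3-fold and 23.6-fold higher signals. The SDs are those of single spots and do not give the error of a mean. These 3 were less close without normalization, at 7.88 for Actb, 7.52 for Gapdh and 7.23 for B2m. After quantile normalization, probes with a higher change than Actb, Gapdh and B2m made up 5.97%, 6.01% and 6.43% of the 21130. Tfrc and Rpl13a, dim on the sham array, were at least 48.4-fold (19 spots) and at least 55.8-fold (14 spots) higher. These bounds take the lowest sham signal that is well above background as the sham level, and they hold for this normalization only. They were 21.5-fold and 23.5-fold with normexp, a model-based background correction, and 290-fold and 332-fold without normalization.

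The sizes moved with the scaling far more than with the spots. Over normexp and the other normalizations, the change of Ppia ran from 253-fold to 2143-fold and that of Actb from 18.8-fold to 236-fold. Gapdh ran from 27.9-fold to 184-fold and B2m from 23.2-fold to 149.9-fold.

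G6pd2 was the exception, with a log2 change of -2.73 (SD over 20 spots 0.58), a 6.61-fold lower signal after normalization. Without normalization between the arrays its log2 change was 0.02 (SD 0.49). The direction of G6pd2 in the scanner version therefore rests on the normalization, whereas the other 6 were higher with each normalization tried. Of the 21130 probes, 65.9% had a higher change than G6pd2.

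For the matrix version the changes were smaller. Actb had a log2 change of -0.55 (SD over 20 spots 0.72), just past the lower threshold, and without its brightest spot of the matrix version of -0.69 (SD 0.30). Its median signal in the matrix version, 41.0, was below the 95th percentile of the negative-control spots there, 57.9. Gapdh had a log2 change of -0.40 (SD over 20 spots 0.29), B2m of -0.24 (SD over 19 spots 0.17) and G6pd2 of 0.10 (SD over 20 spots 0.63), all between the thresholds. Ppia was at least 2.96-fold lower (19 spots), with the floor as its IRI level. No change is given for Tfrc and Rpl13a, which were dim on both sides. The 4 measured mRNAs spanned 0.65 on the log2 scale, where the 5 measured in the scanner version spanned 11.27.

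**Figure D2:**
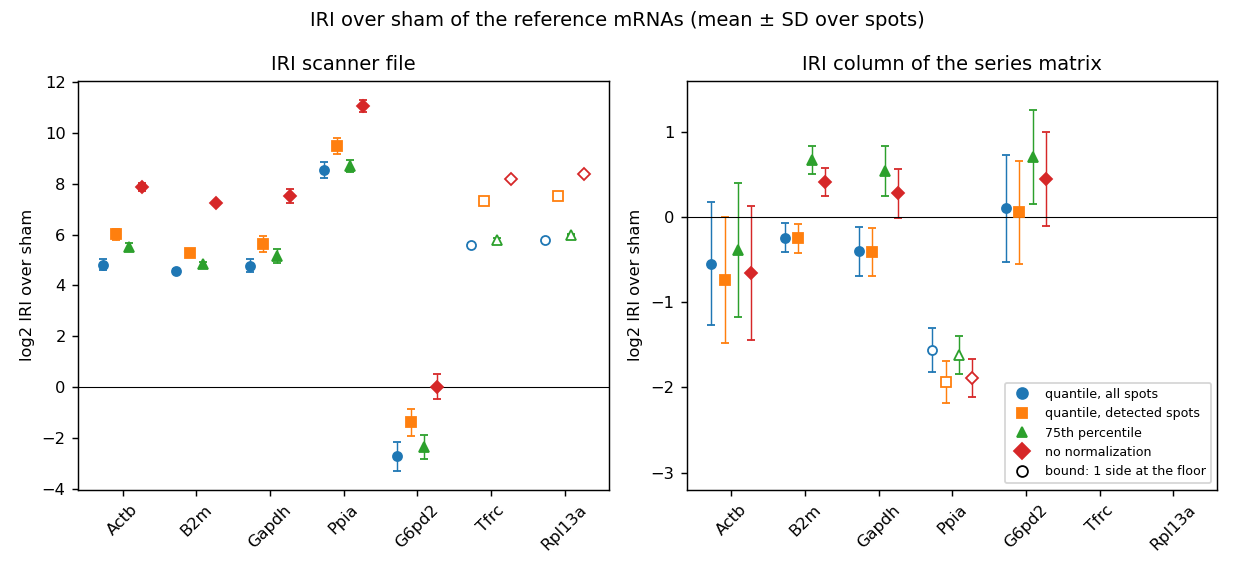
Log2 IRI over sham of the reference mRNAs in the scanner version (left) and in the matrix version (right), as the mean with the SD over spots, under 4 normalizations; open symbols are bounds. The scales of the panels differ. Changes of 6 mRNAs are at 4.56 or more on the left, and those of Gapdh and B2m cross 0 with the normalization on the right.

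The direction of Gapdh and B2m in the matrix version depended on the normalization. With each array scaled to its 75th percentile the log2 change of Gapdh was 0.54 and that of B2m 0.67, and without normalization 0.28 and 0.41. Quantile normalization over spots detected in both columns gave -0.41 and -0.25. Actb and Ppia were lower under these 4 settings, but Actb at the 75th percentile, at -0.39, no longer passed the threshold.

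The counts are set beside those of all probes for the other normalizations. The scanner version gave 6 rises among the 7 under each of them, where 58.3% of probes rose without normalization, 25.6% at the 75th percentile and 53.5% with quantile normalization over detected spots. Its falls numbered 0, 1 and 1 in that order, beside 22.3%, 40.7% and 29.1% of probes. The matrix version gave 0, 2 and 0 rises among 5 mRNAs, beside 31.9%, 42.8% and 24.7% of probes. Its falls numbered 2, 1 and 2, beside 30.2%, 23.3% and 31.6% of probes. The 2 rises at the 75th percentile were B2m and G6pd2.

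A factor common to all spots of an array cancels in the difference between 2 genes, so that the unnormalized changes were also taken relative to that of Gapdh. For the scanner version the log2 change of Actb exceeded that of Gapdh by 0.36 (SE over spots 0.07), and that of B2m was lower than that of Gapdh, with a difference of -0.29 (SE 0.07). Ppia exceeded Gapdh by 3.55 (SE 0.08), an 11.7-fold difference. G6pd2 differed from Gapdh by -7.50 (SE 0.13), a 181-fold lower ratio. Tfrc and Rpl13a exceeded Gapdh by at least 0.66 and at least 0.86.
Within the matrix version, B2m and G6pd2 differed from Gapdh by 0.13 (SE 0.07) and 0.17 (SE 0.14). Actb differed from Gapdh by -0.93 (SE 0.19). Ppia was lower than Gapdh by at least 4.49-fold.

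**Figure D3:**
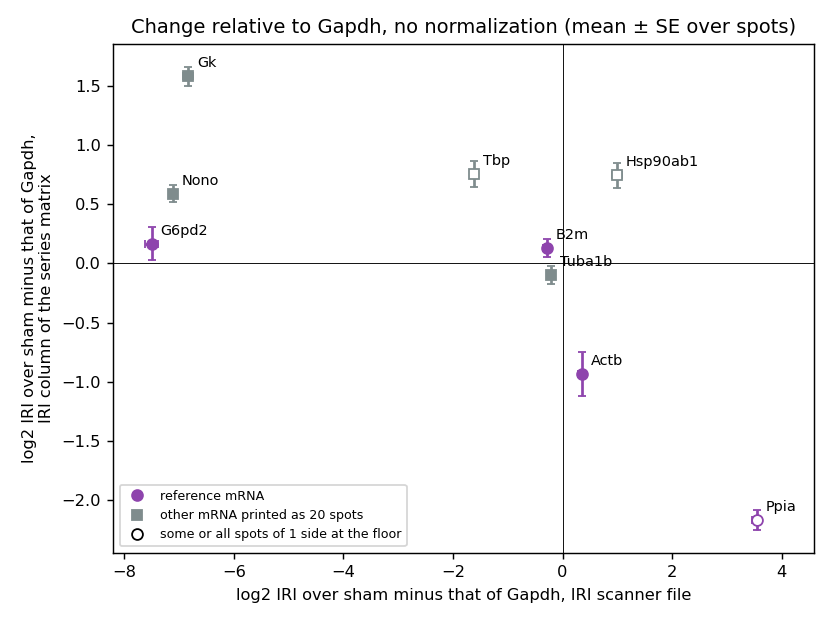
Log2 IRI over sham minus that of Gapdh without normalization between arrays, in the scanner version (x axis) and in the matrix version (y axis), with SE over spots, for the mRNAs that have a value in both; both axes share the sham array. Open symbols have spots at the floor on 1 side, and Ppia lies at 3.55 and -2.17 while G6pd2 lies at -7.50 and 0.17.

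The other 8 mRNAs printed as 20 spots serve as a comparison of the same design. They are Gusb, Hprt, Tbp, Gk, Hsp90ab1, Ldhal6b, Nono and Tuba1b. Within the scanner version 6 of these 8 were counted as higher and 2 as lower, with a median log2 change or bound of 3.90. Nono, an RNA-binding protein of the nucleus, had a log2 change of -3.00 (SD over 20 spots 0.17) and Gk, glycerol kinase, of -2.50 (SD over 20 spots 0.32). G6pd2, Nono and Gk were thus the 3 of 15 that were lower there. Without normalization Nono and Gk had log2 changes of 0.40 and 0.69, nearer to the 0.02 of G6pd2 than to the 7.52 of Gapdh. Gk was then 1.61-fold higher, past the upper threshold, and its scanner spots were all brighter than its sham spots. The spot ranges of Nono and G6pd2 overlapped.
Tuba1b, an alpha-tubulin, was the closest to Actb, Gapdh and B2m of those of the 8 with every sham spot above background in the scanner comparison, with a log2 change of 4.30 (SD over 17 spots 0.22). Hsp90ab1, a chaperone, was 56.0-fold higher, with 17 of 20 sham spots well above background. For Hprt 1 of 20 sham spots was well above background, and its 195-fold higher signal was taken almost wholly against the floor. With each spot at its own signal Hprt was 468-fold higher. In the matrix version 5 of the 8 had a change, of which 3 were counted as higher and 0 as lower. Those 3 were Gk with a log2 change of 1.23 (SD over 20 spots 0.21), Hsp90ab1 with 1.34 (SD 0.41) and Tbp with 1.54. Tbp had 1 of 20 sham spots well above background, so that its value was taken almost wholly against the floor, and it was 2.62 with each spot at its own signal. The reference mRNAs with a value were between -1.57, the bound of Ppia, and 0.10 there, and those 5 others between 0.17 and 1.54. These ranges were apart under quantile normalization only. Without normalization they were -1.88 to 0.45 and 0.18 to 1.86, and overlapped. At the 75th percentile they were -1.62 to 0.71 and 0.44 to 2.12, and overlapped as well.

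By the pair of log2 changes in both versions, the mRNAs nearest to Gapdh among 41 with a symbol and a value were Actb, at a Euclidean distance of 0.15, and B2m, at 0.27. Nono was nearest to G6pd2, at 0.28. No nearest mRNA is given for Ppia, whose value in the matrix version is a bound. These distances rest on 2 comparisons that share the sham array, and they hold for the quantile normalization over all spots only. Without normalization, Tuba1b differed from Gapdh by -0.21 in the scanner version and -0.10 in the matrix version. The same differences were -0.29 and 0.13 for B2m and 0.36 and -0.93 for Actb, so that Actb was then not the nearest.

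Of 29 names in the list of reference genes drawn up here, 10 were found by accession, namely the 7 and Gusb, Hprt and Tbp. In the scanner version 9 of these 10 were higher and 1 was lower, beside 28.8% and 40.5% of all probes. For the matrix version 6 had a value, of which 1 was higher and 2 were lower, beside 34.6% and 24.0%. The 1 that was higher was Tbp. No other gene of the lists for glycolysis, the pentose phosphate pathway, MHC class I, iron uptake or ribosomal proteins was found by accession, so that these lists have 1 gene each. The same holds for 38 marker genes of 6 cell types, among which only Tfrc of the erythroid list was found, and the plasma label could not be checked against markers of hepatocytes, platelets, neutrophils, lymphocytes or endothelium. The part of RNA from blood cells in the change of Tfrc was not tested. Of 8 close copies of the 7 genes, such as Actg1 and G6pdx, 0 were found by accession, and signal from such copies on these probes was not tested.

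The spread over spots differed between arrays. For the 5 mRNAs above background on the sham array, the coefficient of variation over 20 sham spots ran from 7.77% for B2m through 12.7% for Actb, 14.9% for Ppia and 16.1% for Gapdh to 37.5% for G6pd2. For the scanner version it was 3.46% for Gapdh, 3.78% for Actb, 4.49% for Ppia, 6.23% for B2m and 22.6% for G6pd2. G6pd2 was the most variable of these on both arrays. Within the matrix version it was 10.3% for G6pd2 and 5.01% for Gapdh, and the single bright spot brought Actb to 123%.

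Part of this spread followed the position of the spots. The array grid has 164 columns, and G6pd2 had a median sham signal of 129 over 14 spots in columns 1 to 82 and of 250 over 6 spots in the other columns, ranges that did not overlap. Across its 20 sham spots the Spearman rho with the grid column was 0.77, and in the scanner version it was 0.78, whereas in the matrix version it was 0.09. Gapdh and B2m were brighter in the right columns of the sham array as well, with medians of 1127 against 1023 and of 1726 against 1578. Actb and Ppia were dimmer there, with 65.6 against 78.9 and 57.8 against 67.4. These values describe spots of single arrays.

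Before the multiplicative detrend of the scanner software, the right side of the sham array was brighter for all 5. The log2 difference between the sides was 1.37 for G6pd2, 0.59 for Gapdh, 0.51 for B2m, 0.19 for Ppia and 0.08 for Actb before it. After it, these were 0.92, 0.22, 0.14, -0.28 and -0.25. Processed and background-subtracted signals were equal within 0.001 at 100% of the spots well above background in the scanner version. On the sham array this held for 0.315% of such spots. Of the sham array and the scanner version, this correction was therefore applied to the sham array alone. Whether it was applied to the matrix version cannot be told from the sources used here. Taking the signals before the detrend left the log2 changes of the scanner version at 4.84 for Gapdh, 4.72 for Actb, 4.55 for B2m, 8.62 for Ppia and -2.55 for G6pd2.

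**Figure D4:**
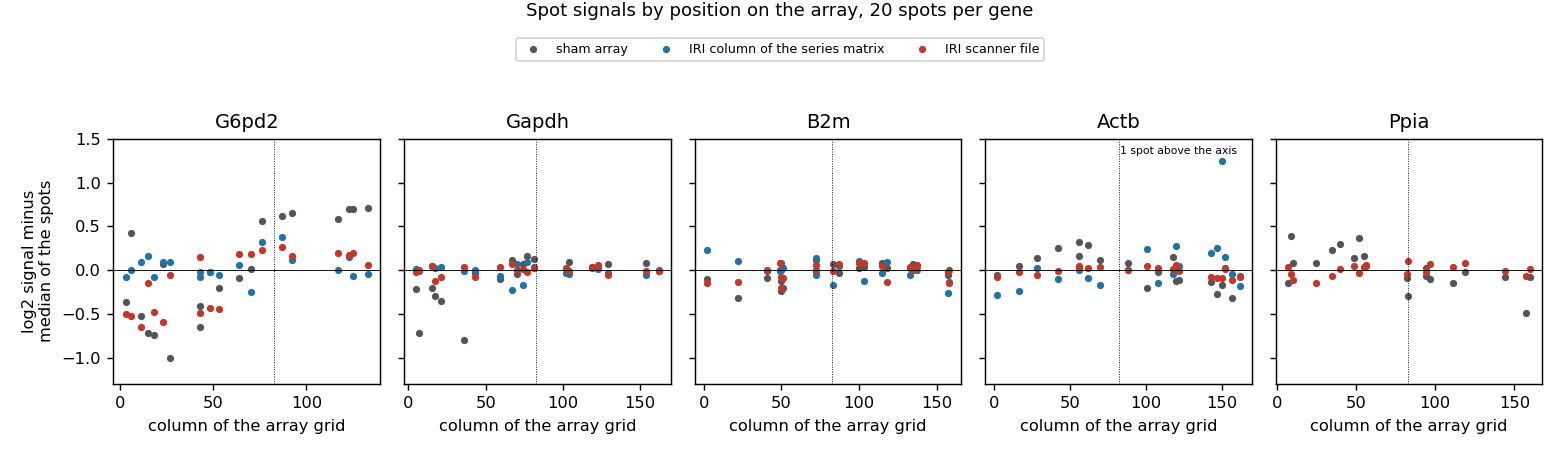
Log2 signal of each spot minus the median of the spots of that gene and array, against the column of the array grid, for the 5 mRNAs above background on the sham array; the dotted line separates the sides, the matrix version of Ppia is left out as below the floor, and 1 Actb spot above the axis is drawn at its upper part. Sham spots of G6pd2 are low in the left columns and high in the right ones, and those of Actb and Ppia slope the other way.

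Within the scanner version, 8 spots of G6pd2 had signals of 111 to 130 and the other 12 of 158 to 210. The 8 lay in columns 3 to 53 and rows 89 to 204 and the 12 in columns 15 to 133 and rows 110 to 365, so that their regions overlapped, and in the matrix version the 8 ranged from 199 to 224, within the range of the other 12. For Gapdh the lowest sham spots, at 632 and 669, lay in columns 36 and 7 and rows 165 and 199. In the scanner version the same spots had signals of 194645 and 189059, near the median of 189280.
Changes by side of the array kept the pattern of the scanner version, where G6pd2 was at -2.51 from the left spots and -3.22 from the right spots. In the matrix version G6pd2 had a log2 change of 0.40 from the left spots and -0.58 from the right spots, and Actb of -0.95 and -0.28. The change of G6pd2 in the matrix version therefore had no direction that held over the array. Gapdh was there at -0.33 from the left spots and at -0.55 from the right spots. Gapdh passed the lower threshold from the right spots only, and Actb from the left spots only.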

How the data were processed

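Plasma RNA of 1 sham and 1 IRI pool was measured on Arraystar Mouse LncRNA Microarray v2.0. For each spot the authors deposited a processed signal, an intensity with the background subtracted and no scaling between arrays, and flags of another kind. Per the submitters' processing notes the software was Agilent Feature Extraction 11.0.1.1. A series matrix of intensities was deposited too, and how its IRI column was made is not given in the sources used here. The matrix had 0 columns without a sample. Depth has no meaning for arrays, and their number limits the precision.

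Groups followed the labels. Log2 signals were quantile normalized (numpy 2.4.6, scipy 1.17.1 and pandas 2.3.3 under Python 3.11.15; figures with matplotlib 3.10.9), checked against limma 3.58.1 in R 4.3.3, and tested on simulated data. The simulation changed few probes, as many up as down, so that it did not test the normalization where many probes differ. Spots with an outlier flag were left out. A dim spot was set to the lowest signal well above background on that array, or above the floor in the matrix version, unless its own was higher. A change was given where over 50% of the spots of a gene were above background on at least 1 array, a rule added after values had been seen. A probe dim in all spots of 1 array could be counted only in the direction of its bound. Of 118 accessions, 112 matched a table for GRCm38.p6, used for names only. Named genes were the 7 mRNAs, the other mRNAs with 15 or more spots, the 2 nearest mRNAs by both changes, and genes of lists. Members and lists were chosen with earlier results of these data known. Alternatives covered the normalization, normexp with an offset of 50, outliers, the median, dim spots and thresholds. Chosen after seeing the data were the sides of the array, signals before the detrend and leaving out 1 Actb spot.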

Additional observations from a re-analysis of the deposited data

How the results depend on the processing

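For the changes of the 7 mRNAs, 115 alternative values were computed. Of these, 78 moved by less than the SD over spots, 37 moved by more, and 6 changed sign. Without normalization between arrays G6pd2 in the scanner file was at 0.017 on the log2 scale, and in the series matrix Gapdh was at 0.28 and B2m at 0.41. At the 75th percentile Gapdh was at 0.54 and B2m at 0.67 there, and G6pd2 was at -0.58 from the right side of the array. Without normalization 0 of the 7 were at or below 0.7-fold in the scanner file. In the series matrix, the 75th percentile gave 2 rises (B2m and G6pd2) and 1 fall (Ppia), and thresholds of 2 and 0.5 left 1 fall. The other counts of rises and falls stayed within 1.5 times under the alternatives run, with 6 rises in the scanner file in each and 3 falls in the series matrix from the right side of the array. Those 3 were Gapdh at -0.55, G6pd2 at -0.58 and the bound of Ppia at -1.39. Actb, at -0.28 from that side, was no longer a fall, so that the mRNAs counted changed. The cause of these shifts was not tested. No paired analysis was possible because each group has 1 array and the labels give no replicate number. Signal over background limits Tfrc and Rpl13a to bounds, and Ppia in the series matrix.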
